A study of Mus musculus with 6 samples.

Results

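Cd47 is a single gene on mouse chromosome 16, and its surroundings were examined in 6 ATAC-seq libraries of CD8+ T cells. ATAC-seq marks open chromatin through a transposase that inserts adapters where DNA is accessible. The members are the peaks whose summit had Cd47 as the nearest protein-coding gene, inside it or at most 100 kb away. There were 214 such peaks among 573921 in the 6 lists, and they merged into 56 of 134174 regions. The members were chosen by the deposited peak calls and their summit positions, and the gene was picked with earlier results of these data known, so the values below are descriptions.

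The T cells came from mouse spleen, were isolated by negative selection and were activated with antibodies against CD3 (5 µg/mL) and CD28 (1 µg/mL). They were kept for 48 h below a porous insert that held lung adenocarcinoma cells resistant to PD-1 blockade. The tumour cells were controls in the Res-ctrl group (3 libraries) and carried a short hairpin RNA against Fabp7 in the Res-shFabp7 group (3 libraries). Fabp7 was targeted in the tumour cells, whose RNA and DNA were not measured, so the knockdown cannot be checked here. The labels call the replicates biological without saying whether each was a separate mouse, so p-values measure the spread between these libraries only. Mouse strain, age and sex, and whether the tumour line is 1 clone: not given in the sources used here.

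CD47 is an integrin-associated membrane protein with an immunoglobulin domain that is made by nearly all cells. It binds SIRP alpha on macrophages and dendritic cells, which restrains phagocytosis, and it is a receptor for thrombospondin-1. On T cells, CD47 is known to modulate activation and adhesion, and it protects circulating cells from removal by phagocytes.

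In the RefSeq table of GRCm38.p6 (the primary assembly of mm10), Cd47 spans chr16:49851328-49912503, or 61.2 kb. RefSeq's promoter table places it on the plus strand with a start at 49855654, which is 4.3 kb inside that span, and a second start at 49855661. All distances below are counted from 49855654 and are negative before it. The flanking coding genes are Ift57 and Bbx. The window of the rule also holds the noncoding genes Gm4633, Gm5486, Gm19723 and Gm6936, and exons and introns were not analysed here.

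The promoter lay inside an open region called in every library, so its sequence is shown. The window chr16:49855404-49855703 (plus strand, GRCm38.p6, RefSeq) holds 250 bases before the start and 50 after it, and capitals mark the letters of the motifs named below.
Cd47 promoter: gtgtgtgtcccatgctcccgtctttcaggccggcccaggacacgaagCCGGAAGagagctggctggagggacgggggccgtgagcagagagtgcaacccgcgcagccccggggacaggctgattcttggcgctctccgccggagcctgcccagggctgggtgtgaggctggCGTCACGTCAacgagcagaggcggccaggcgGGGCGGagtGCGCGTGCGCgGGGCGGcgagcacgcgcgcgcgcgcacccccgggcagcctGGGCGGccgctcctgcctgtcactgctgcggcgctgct

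Of the window's bases 74.0% were G or C, and it held 35 CpG pairs. Over 32851 promoter windows of the same length the medians were 52.7% and 7 CpG pairs, and 4.44% of windows had a higher G and C content. Both strands were searched for 7 motifs that were chosen after the sequence had been seen. The GC box of SP and KLF factors (GGGCGG) occurred 3 times, the first base lying at -48, -28 and 12, and 35.7% of all windows held it. The palindrome of the nuclear respiratory factor NRF1, the 10 capitals between the first pair of GC boxes with any letter allowed at the fifth place, occurred once, at -39, and 4.60% of windows held it. An ETS site (CCGGAAG) lay at -203, with a share of 8.86% of windows. The half-site of CREB and ATF factors (CGTCA) occurred at -79 and -74, with a share of 20.8%. The core of hypoxia-inducible factors (ACGTG) lay on the minus strand at -76, within those half-sites, with a share of 19.6%. The E-box CACGTG, read by Myc and clock factors (7.15% of windows), and the TATA box TATAAA (13.6%) were not among the letters of this window. A match is a description of letters and not evidence of a bound factor.

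The strongest peaks of the 6 libraries at the promoter fell at nearly the same base. Their summits lay at -107, -122 and -107 with Res-shFabp7 and at -109, -111 and -107 with Res-ctrl, between the ETS site and the CREB half-sites in the printed sequence.

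The lists held 104575, 105796 and 100243 peaks with Res-shFabp7 and 84844, 82153 and 96310 with Res-ctrl. The lengths of the whole lists thus did not overlap between the groups. A relative depth was read from each list as its most frequent background pileup, and it was 0.868 to 1.03 with Res-shFabp7 and 0.608 to 1.01 with Res-ctrl, where replicates 1 and 2 were the lowest (0.709 and 0.608). The mean depths were 0.951 ± 0.0793 and 0.774 ± 0.207 (SD, n = 3 each), with an exact two-sided permutation p of 0.300. All 5 genes listed as markers of CD8 T cells had regions called in all 6 libraries, 33 in total. The 5 were Cd3e, Cd3d and Cd3g, which T cells in general share, and Cd8a and Cd8b1, the genes of CD8. A region called in all 6 libraries was also found at 2 of 2 CD4 T cell and 1 of 2 NK cell markers. Such a region was found at 1 of 3 B cell, 1 of 3 myeloid and 1 of 4 lung epithelial markers. Over all coding genes, 13779 of 21887 had one. No region was assigned to Ms4a1, Krt8 or Sftpc. Epcam had 2 of 9 regions and Cd4 1 of 10 called with Res-shFabp7 alone, against 2.28% of all merged regions. The part of these other cells in the Cd47 values was not tested.

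Of the 56 regions at Cd47, 22 (39.3%) had a peak in all 6 libraries, against 42.2% of all merged regions. Only 0.832% of 21887 coding genes had more such regions, and the median over genes with any was 2.00. That count was not scaled to the length of the stretch that the rule gives each gene. The 22 lay before the gene (5), inside it (7) and after it (10), and 14 of them overlapped a noncoding gene. Summits within a region lay within 3 to 185 bp of each other across libraries, with a median of 34.5 bp against 50 bp for all regions called in all 6.

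**Figure D1:**
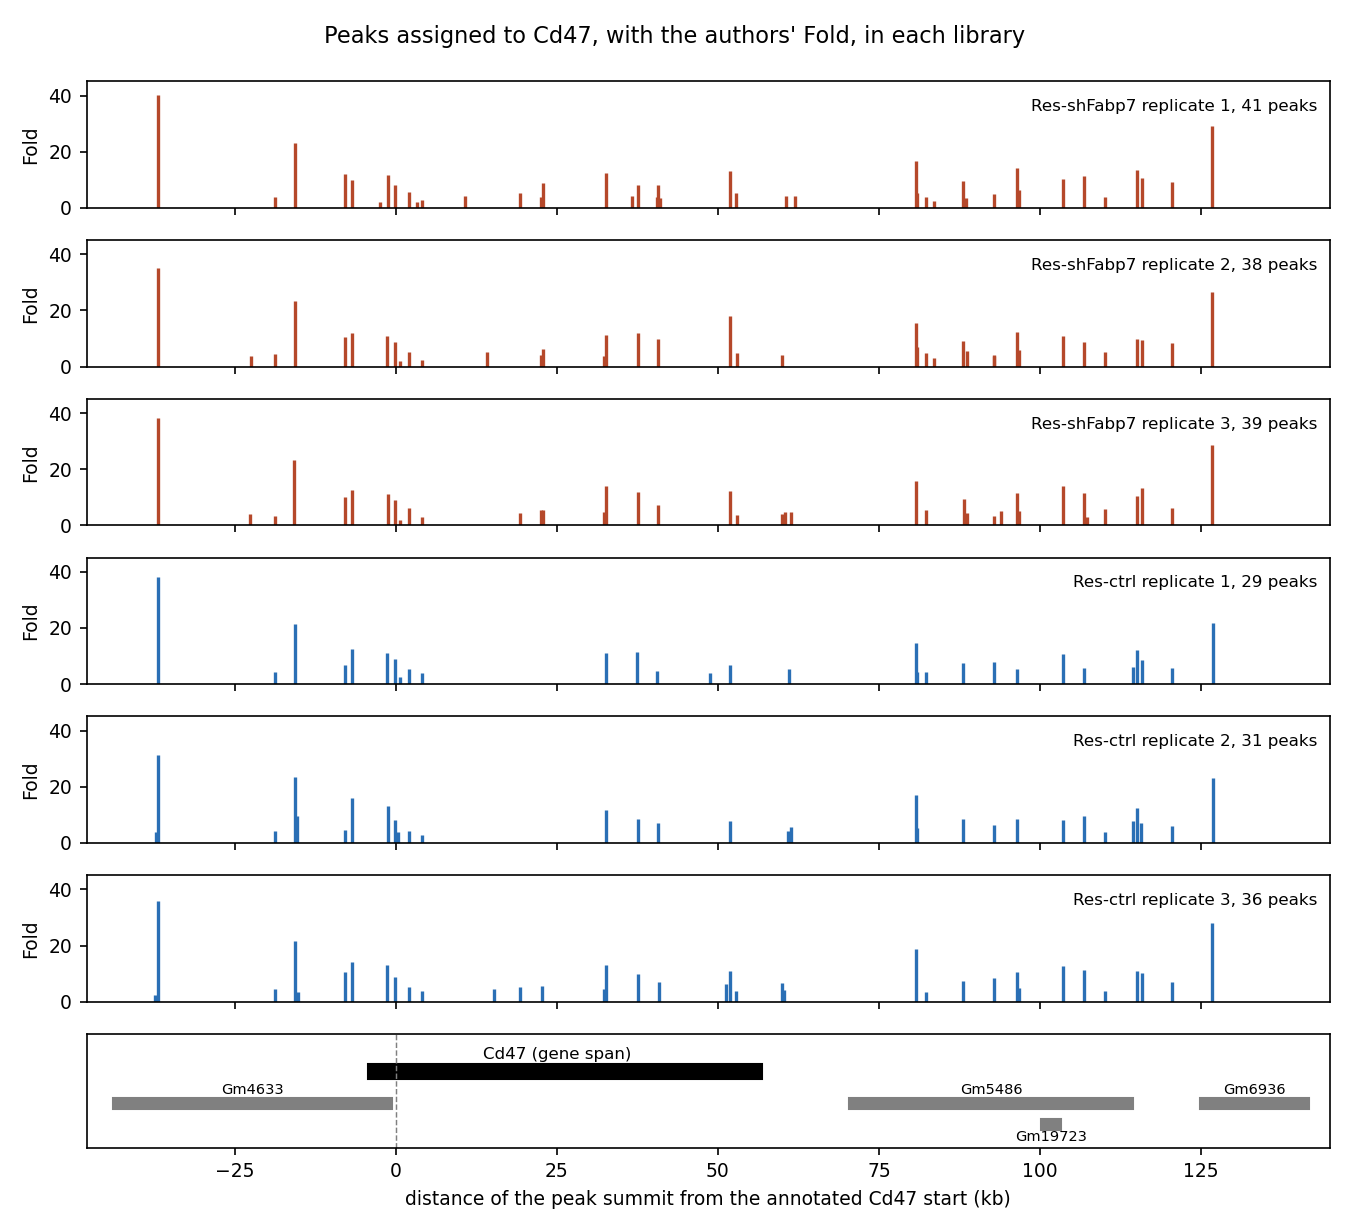
Peaks assigned to Cd47 in each library, drawn at their summit's distance from the annotated start (kb) with the authors' Fold as height, above the spans of Cd47 and the noncoding genes. The tallest line in each of the 6 libraries stands at -36.9 kb, and the lists hold 38 to 41 peaks with Res-shFabp7 and 29 to 36 with Res-ctrl.

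Before the gene, the region at -36.9 kb (chr16:49818618-49819092, within Gm4633) had the highest Fold of the locus in each library. Fold is the authors' ratio of the summit to its local background, and it was 40.1, 35.0 and 38.4 with Res-shFabp7 and 38.1, 31.3 and 35.9 with Res-ctrl. The groups overlapped, and the peak was among the top 0.18% to 1.75% of its list by Fold. The region at -15.7 kb (chr16:49839642-49840582) also overlapped between the groups, with Fold values of 23.1, 23.4 and 23.4 against 21.5, 23.5 and 21.7. The regions at -6.9 kb and -18.7 kb had Folds of 9.89 to 16.1 and of 3.24 to 4.45, with overlapping groups. At -7.9 kb (chr16:49847601-49847884) the Fold was 12.2, 10.6 and 10.2 with Res-shFabp7 and 6.99, 4.74 and 10.6 with Res-ctrl. There the 2 shallowest libraries were low, and Res-ctrl replicate 3 lay within the Res-shFabp7 range.

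Around the start, 4 regions formed a cluster at -1.3, -0.1, 2.1 and 4.0 kb. The promoter region at -0.1 kb (chr16:49855182-49856111) had a Fold of 8.28, 8.81 and 8.90 with Res-shFabp7 and 9.14, 8.32 and 8.97 with Res-ctrl, and the groups overlapped. Its pileup, the coverage at the summit, was 193, 191 and 198 against 131, 104 and 178. By pileup the promoter peak was among the top 4.14% to 9.36% of its list and by Fold only among the top 37.3% to 43.2%. The local background recovered there was 22.4, 20.8 and 21.4 with Res-shFabp7 and 13.4, 11.6 and 18.9 with Res-ctrl, among the highest 0.59% to 2.39% of each list. The neighbour at -1.3 kb (chr16:49854121-49854653, within the span of Cd47 and the end of Gm4633) had the highest median pileup of the locus, 149 to 258.

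The order of the regions depended on the measure. By Fold the region at -36.9 kb came first in 6 of 6 libraries. By pileup the same 4 regions, at -36.9, -15.7, -1.3 and -0.1 kb, led in each library, and -15.7 kb came first in 3, -1.3 kb in 2 and -36.9 kb in 1. Within each of the 6 libraries the promoter at -0.1 kb lay below both -15.7 and -1.3 kb. The order among -36.9, -15.7 and -1.3 kb changed from library to library.

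**Figure D2:**
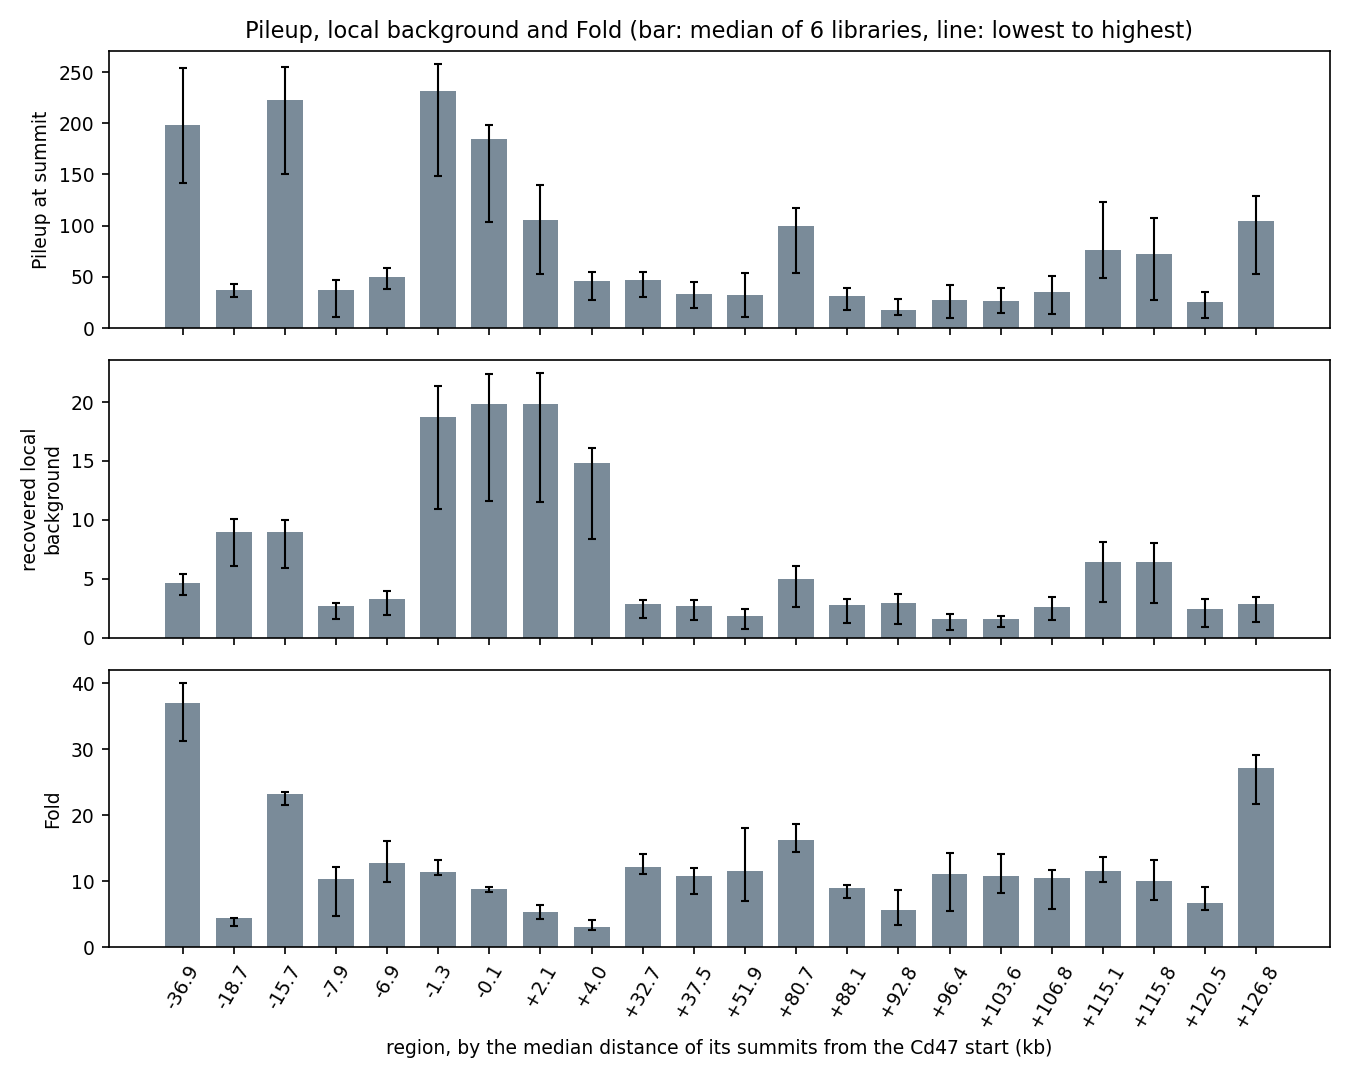
Pileup at the summit, the local background recovered from it and Fold for the 22 regions called in all 6 libraries, as bars for the median and lines from the lowest to the highest library. Background stands highest at the 4 regions from -1.3 to 4.0 kb, and the highest median pileup, at -1.3 kb, does not have the highest Fold.

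Inside the gene beyond that cluster, 3 regions were called in all 6 libraries, at 32.7, 37.5 and 51.9 kb. The region at 32.7 kb (chr16:49888205-49888699) had Folds of 12.6, 11.4 and 14.1 with Res-shFabp7 and 11.1, 11.7 and 13.1 with Res-ctrl. The region at 51.9 kb (chr16:49907387-49907681) had Folds of 13.3, 18.1 and 12.2 against 6.92, 7.77 and 10.9, so that its groups did not overlap.

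After the gene, 10 regions in all 6 libraries ran from 80.7 to 126.8 kb, 7 of them overlapping Gm5486 and the last within Gm6936. That last region (chr16:49982097-49982609) had the second highest median Fold of the locus, with 29.1, 26.5 and 28.4 against 21.7, 23.2 and 27.9. At 80.7 kb (chr16:49935953-49936799) Fold was 16.6, 15.6 and 15.9 against 14.5, 17.1 and 18.7. The member farthest from Cd47 is 69.8 kb past its end, and the next region outside the rule lay 113.8 kb past it, with a Fold of 4 to 7.04 in 3 libraries. On the other side a region called in all 6 libraries, with a Fold of 11.4 to 16.1, went to Ift57 because it was 42271 bp from that gene and 43931 bp from Cd47. The nearest region inside the rule on that side, at -37.3 kb, had a Fold of 2.55 to 3.73 in 2 Res-ctrl libraries.

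More peaks were called at Cd47 in the Res-shFabp7 libraries. The counts were 41, 38 and 39 with Res-shFabp7 and 29, 31 and 36 with Res-ctrl, and the groups did not overlap. The means were 39.3 ± 1.53 and 32 ± 3.61 (SD, n = 3 each), with an exact two-sided permutation p of 0.1, where 3 against 3 cannot go lower. Covered length was 11300, 10841 and 11327 bp against 8529, 7836 and 10380 bp (exact permutation p = 0.1). As a share of each list, the Cd47 peaks were 39.2, 35.9 and 38.9 per 100000 with Res-shFabp7 and 34.2, 37.7 and 37.4 with Res-ctrl, which overlapped (exact permutation p = 0.400). When every list was cut to its 82153 strongest peaks by q, the mean counts at Cd47 were 30.7 and 30 and the groups overlapped. Covered length at Cd47 in those cut lists stood apart, by 1520 bp (exact permutation p = 0.1). No covered length over whole lists is given beside it. The median peak width of the full lists was 185, 181 and 185 bp with Res-shFabp7 and 176, 178 and 184 bp with Res-ctrl. Whether the gap in length is particular to Cd47 was not tested. Set against Res-ctrl replicate 3 only, the deepest control, the differences were 3.33 in place of 7.33 peaks and 776 in place of 2241 bp.

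**Figure D3:**
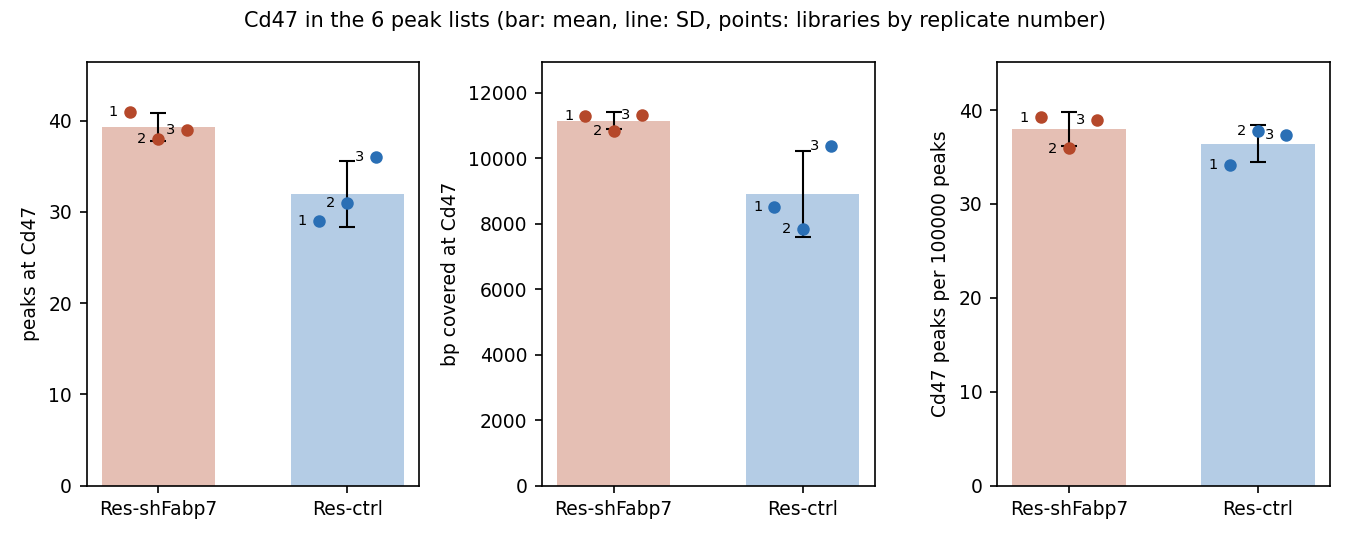
Peaks assigned to Cd47, base pairs they cover and peaks per 100000 of the list, as points per library (numbered by replicate) with bars for the group mean and lines for the SD. The groups stand apart in counts (38 to 41 against 29 to 36) and in length, and overlap per 100000 peaks.

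At Cd47, 2 of the 56 regions (3.57%) had a peak in 3 of 3 Res-shFabp7 and 0 of 3 Res-ctrl libraries, against 2.28% of all merged regions. The reverse held for 0 regions, against 0.155% of all merged regions. The first lay inside the gene at 22.5 kb (chr16:49878133-49878235), with Folds of 4.06, 4.06 and 5.68 and pileups of 11, 10 and 14. The second lay at 88.6 kb (chr16:49944125-49944346), with Folds of 3.46, 5.65 and 4.40 and pileups of 12, 20 and 16. Both were weak peaks beside a neighbour, 87 bp and 69 bp from the next region, which had peaks in 1 and in 3 Res-ctrl libraries. Neither was called only with Res-shFabp7 when peaks up to 200 bp apart were merged or when the lists were equally long, and without Res-ctrl replicate 3 there were 5 such regions.

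The other 32 regions had peaks in 1 to 5 libraries with no full split of the groups. Of these, 17 were called in a single library, 6 of them in Res-shFabp7 replicate 1. More Res-shFabp7 than Res-ctrl libraries held 23 of the 32, and 7 went the other way. No such split over all merged regions is given here. Each Res-shFabp7 list was longer than each Res-ctrl list, so these counts are not a trait shown to be particular to Cd47. They were short, with a median length of 132 bp against 393 bp for the regions in all 6 libraries. Their Folds ran from 1.92 to 9.75, with a median of 4.21 against 10.8.

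By Fold, the regions called in all 6 libraries differed between the groups about as often as elsewhere. In 3 of 22 (13.6%) every Res-shFabp7 library was above every Res-ctrl library, against 13.1% of the 56610 such regions genome-wide, and in 1 (4.55%) every one was below, against 5.34%. The 3 were the region at 51.9 kb described above and those at 88.1 and 96.4 kb. At 96.4 kb (chr16:49951887-49952171) Fold was 14.2, 12.5 and 11.6 with Res-shFabp7 and 5.53, 8.36 and 10.6 with Res-ctrl, and at 88.1 kb it was 9.45, 9.26 and 9.46 against 7.42, 8.63 and 7.43. The one that was lower lay between them, at 92.8 kb (chr16:49948369-49948733), with 4.83, 4.08 and 3.41 against 7.78, 6.46 and 8.61. Divided by each library's median Fold over all such regions, the split became 2 above and 6 below, where 6.85% and 15.9% of all regions fell. Besides 92.8 kb, the 6 below were at -18.7, -6.9, -1.3, -0.1 (the promoter) and 4.0 kb, where the groups overlapped by unscaled Fold. Under both scalings the regions at 51.9 and 96.4 kb were higher and that at 92.8 kb was lower. The unscaled counts moved with single libraries, to 8 above without Res-shFabp7 replicate 2, to 7 above without Res-ctrl replicate 3 and to 5 below without Res-ctrl replicate 1.

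By pileup over depth, more of the regions stood apart. Each pileup was divided by its library's relative depth, a depth-scaled pileup. In 11 of 22 regions every Res-shFabp7 library was then above every Res-ctrl library, against 10.7% of all regions called in all 6 libraries, and in 1 region, at 92.8 kb, every one was below, against 12.7%. Pileup as deposited gave 7 above (15.8% of all) and 0 below (0.378%), and pileup over the library's median pileup gave 10 above (10.3%) and 0 below (14.6%). The median ratio of the group means was 1.21 at Cd47 and 0.971 over all such regions, and it was above 1 in 18 of 22 regions and in 44.3% of all. Of 1140 genes with at least 10 such regions, 1 had a larger share of regions that stood above, and the median share was 9.09%. By median ratio, 3.07% of these genes were higher than Cd47. Neighbouring regions share their libraries and lie close together, so they are not independent, and the gene was chosen with earlier results known.

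The promoter was among the 11, with depth-scaled pileups of 188, 220 and 206 against 185, 171 and 177, a narrow gap. Its direction depended on the measure. By Fold over the library's median Fold, every Res-shFabp7 library was below every Res-ctrl library there, and by unscaled Fold the groups overlapped. The region at 2.1 kb was at 132, 126 and 146 against 110, 87.2 and 101, so the groups stood apart. At 51.9 kb the values were 43.9, 62.2 and 39.6 against 15.5, 24.7 and 26.8, with Res-ctrl at most 26.8 and Res-shFabp7 at least 39.6. The regions at -36.9, -15.7 and -1.3 kb, the tallest besides the promoter, overlapped between the groups. The remaining 8 were at -7.9, 80.7, 88.1, 96.4, 115.1, 115.8, 120.5 and 126.8 kb, so that 7 of the 11 lay after the gene. The gap was narrow too at -7.9 kb, with a lowest Res-shFabp7 value of 38.6 and a highest Res-ctrl value of 36.8. It was also narrow at 115.1 and 126.8 kb, so part of the count of 11 rests on small differences.

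**Figure D4:**
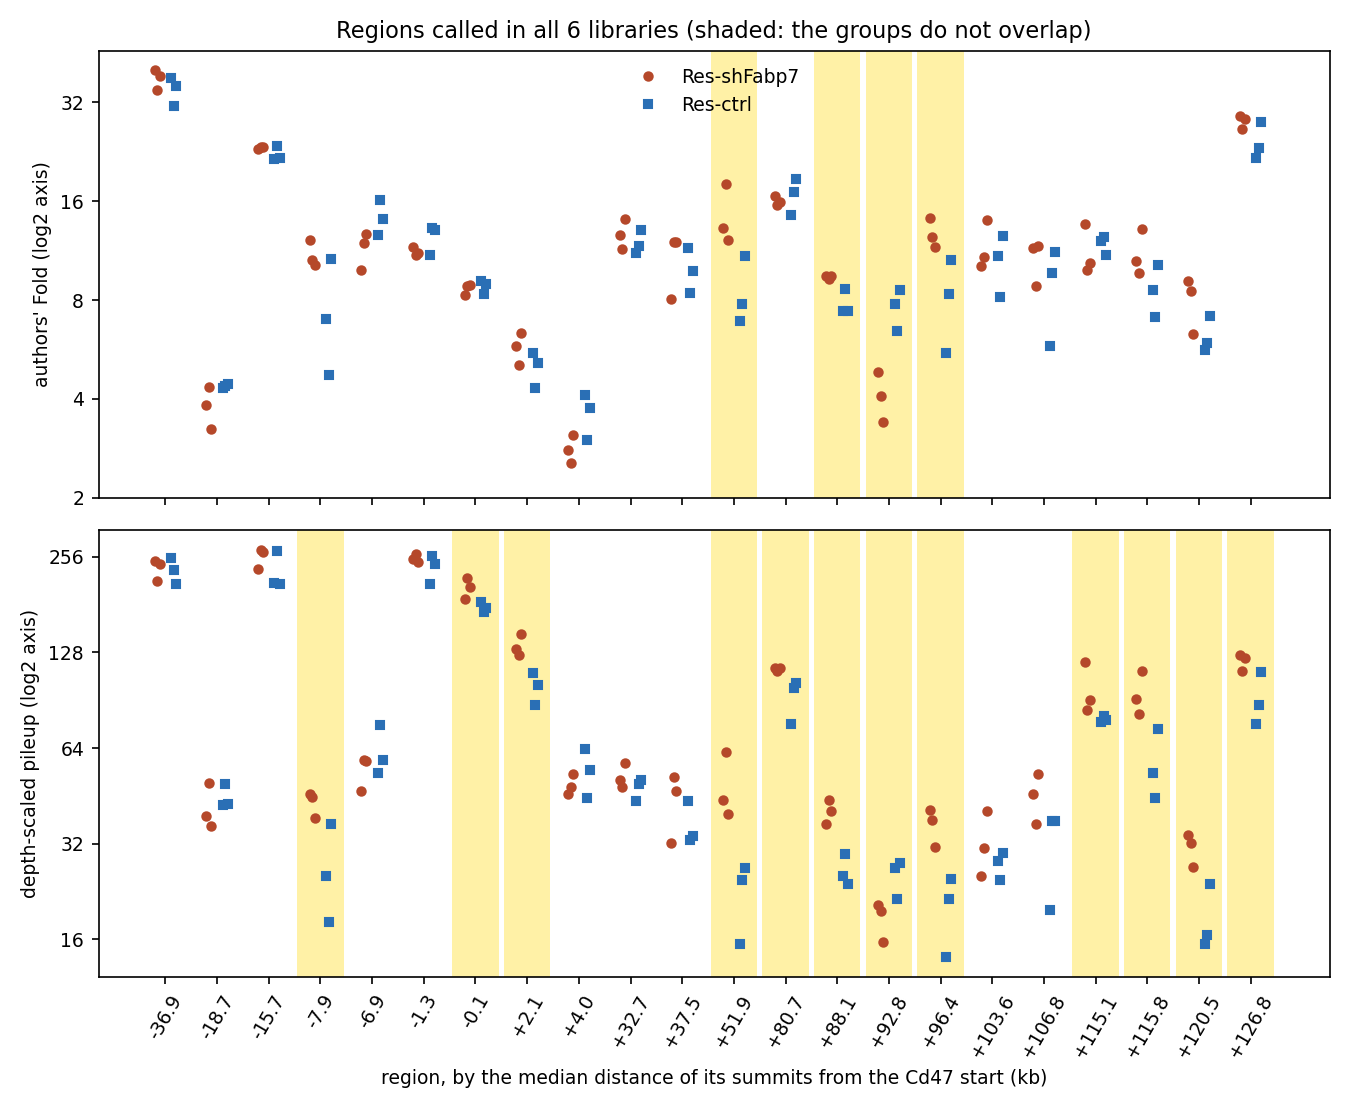
Fold (upper panel) and depth-scaled pileup (lower panel) of each library in the 22 regions called in all 6 libraries, on log2 axes, with circles for Res-shFabp7, squares for Res-ctrl and shading where the groups do not overlap. Shading covers 4 regions by Fold and 12 by depth-scaled pileup, and in both panels the region at 92.8 kb is the one where Res-shFabp7 is lower.

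Summed over the 22 regions, depth-scaled pileup was 2012, 2045 and 2088 with Res-shFabp7 and 1671, 1773 and 1779 with Res-ctrl, with means of 2048 ± 38.0 and 1741 ± 60.6 (SD, n = 3 each). The ratio of the means was 1.18, and 1.15 against Res-ctrl replicate 3 alone, whose depth of 1.01 lay within the range of the other group. Over all regions called in all 6 libraries the ratio of these sums was 0.955. By part of the locus, the 10 regions after the gene had sums of 655, 591 and 649 against 413, 462 and 534, a ratio of 1.34. The 7 inside the gene had 744, 818 and 797 against 671, 668 and 687, a ratio of 1.16. The 5 before it overlapped, at 613, 636 and 642 against 587, 643 and 559, a ratio of 1.06. Against Res-ctrl replicate 3 alone the ratios were 1.18 after the gene, 1.14 inside it and 1.13 before it. The parts thus differed less from each other when set against the deepest control. Whether more cells were open at these sites or single cells were more open cannot be told apart in bulk libraries.

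The local background at the same 22 regions differed too, but it was recovered from pileup and Fold and is not a separate measurement. Divided by depth, its median was 3.66, 3.89 and 3.74 with Res-shFabp7 and 2.8, 2.94 and 3.14 with Res-ctrl, while over all such regions the group means were 3.12 and 3.09. Fold divides the pileup by this local background. The difference in background was not seen in the 5 regions before the gene, with medians of 5.23, 5.01 and 5.31 against 5.30, 5.88 and 4.88. Inside the gene and after it the medians of the groups did not overlap.

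Among the flanking genes, Ift57, a gene of intraflagellar transport, had 5 of 16 regions in all 6 libraries with a higher depth-scaled pileup in every Res-shFabp7 library and 1 lower. Bbx, an HMG-box gene on the other side, had 2 of 14 and 0. Over all regions called in all 6 libraries 10.7% were above and 12.7% below. The median ratios at Ift57 and Bbx were 1.18 and 1.13, against 0.971 over all such regions. Neither gene had a region called only with 1 group.

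The genes with peak counts most like those of Cd47 were Cdyl2, Ctif, Cux1, Dad1 and Vps13d, by the sum of absolute differences over the 6 libraries, which was 7 for Cdyl2 and 9 for each of the others. Of their regions called in all 6 libraries, depth-scaled pileup stood above in 6 of 21 at Cdyl2 and 3 of 25 at Dad1. It did so in 1 of 23 at Ctif, 1 of 19 at Vps13d and 0 of 18 at Cux1. The share over all such regions was 10.7%.

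The partners of CD47 varied widely in how much of their surroundings was open. In a list of 8 binding partners, 6 genes had a region in all 6 libraries. Sirpa, the gene of the CD47 receptor on phagocytes, had 1 such region of 9, and Thbs1, which encodes thrombospondin-1, had 1 of 3. Itgb3, the integrin chain that CD47 associates with, had 15 of 29 and Itgb1 10 of 29. Itgb3 (chr11:104642496-104642659) and Itgav, its alpha partner (chr2:83723157-83723270), each had 1 region called only with Res-shFabp7, inside the gene. These 2 of the list's 99 regions (2.02%, against 2.28% of all merged regions) had such a call, and 0 had the reverse (0.155% of all).

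In the list of SIRP alpha signalling and CD47 modification, 8 of 8 genes had a region in all 6 libraries. Of its regions 45.5% were called so, against 42.2% of all merged regions. Ptk2b, a kinase of adhesion signalling, had 28 such regions of 54 and Fyb, an adaptor downstream of the T cell receptor, 25 of 48. Qpctl, the enzyme that modifies the end of CD47 bound by SIRP alpha, had a single region, called in all 6 libraries. Regions called only with Res-ctrl were at Fyb, with 2 inside the gene (chr15:6616397-6616555 and chr15:6623775-6623865), and at Ptk2b, with 1 (chr14:66189436-66189605). Skap2, an adaptor that binds Fyb, and Src, a tyrosine kinase, had 1 each called only with Res-shFabp7. Of 165 regions in the list, 2 (1.21%, against 2.28% of all merged regions) were called with Res-shFabp7 alone and 3 (1.82%, against 0.155%) with Res-ctrl alone, counted without a test.

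Among intracellular partners 5 of 5 genes had a region in all 6 libraries. Of the list's 36 regions 52.8% were called so, against 42.2% of all merged regions. Gnai2, an inhibitory G protein subunit, had 6 of 10 and Ubqln1, a ubiquitin-like protein that binds CD47, had 5 of 11. Ubqln1 had 1 region called only with Res-ctrl (chr13:58215068-58215259), which is 2.78% of the list's 36 regions against 0.155% of all. In the list of other signals read by phagocytes 7 of 9 genes had a region in all 6 libraries. Of the list's 75 regions 36.0% were called so, against 42.2% of all merged regions. Pecam1, an adhesion molecule, had 15 of 35 and Lrp1, the receptor for calreticulin, 4 of 16. Cd24a, another signal that restrains phagocytes, had 1 region called only with Res-shFabp7, which is 1.33% of the list's 75 regions against 2.28% of all. B2m had no assigned region because the 1 region inside it, called in all 6 libraries, also lies inside Patl2, to which it was assigned.

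Among genes of transcription factors studied as regulators of CD47, a region called in every library was found at 9 of 9, and at 13779 of all 21887 coding genes. Of the list's 270 regions 110 (40.7%) were called so, against 42.2% of all merged regions. Nfkb1, a subunit of NF-kappaB, had 26 of 58 and Myc 18 of 42. In this list 8 regions were called only with Res-shFabp7, 2 each at Myc, Hif1a and Nfkb1 and 1 each at Stat3 and Irf1, and 0 only with Res-ctrl. The 8 were 2.96% of the list's regions, against 2.28% of all merged regions.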

How the data were processed

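The 6 ATAC-seq libraries, 3 per group, hold paired reads 76 bases long, per the labels' protocols. The submitters' processing notes name Trim Galore 0.6.5, cutadapt 2.8, Bowtie 1.1.2, MACS2 2.2.7.1 and build mm10. A transposase shift, duplicate handling and peak caller options: not given in the sources used here. Each library has its own deposited list of peaks, with p and q as −log10, Pileup (the coverage signal at the summit) and Fold (the ratio of the summit to its local background). Peaks have a q under 0.05, and no scaling of the deposited values between libraries is recorded.

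Positions count from 0 in the lists, as inferred from their values, and are given from 1. Peaks of the 6 lists were merged where they overlapped by at least 1 bp, and a library's value in a region is that of its peak with the highest −log10 q. Genes were the 21887 protein-coding genes of RefSeq's GRCm38.p6 table, with a tie going to the gene that starts first. Local background was recovered as (Pileup + 1)/Fold − 1, and the value found most often in each list, to 3 decimals, was used as relative depth. Counts per library were compared with two-sided exact permutation tests (Python 3.11.15), tested on simulated data. Named besides Cd47 are its flanking genes, the 5 genes of most like peak counts and, from 5 lists of 39 genes, those with a region called only with 1 group and the 2 with the most regions in all 6 libraries; Sirpa, Thbs1, Qpctl and B2m were added after their values were seen. The members and lists were chosen with earlier results of these data known. Lists of equal length, other thresholds, distances, merging rules and each library left out were tried, and group comparisons by Fold and depth-scaled pileup, and the 7 motifs, were added after seeing the data.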

Additional observations from a re-analysis of the deposited data

How the results depend on the processing

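With the shortest list's number of peaks, merging up to 200 bp apart, a 20 kb distance or the gene body alone, regions at Cd47 called only with Res-shFabp7 numbered 0, 0, 1 and 1 in place of 2. The regions called in all 6 libraries numbered 11 within 20 kb and 7 in the gene body in place of 22, as fewer regions enter. With Res-ctrl replicate 3 as the only control, 4 regions were called only with Res-ctrl in place of 0, since 1 library then suffices. Leaving out 1 library at a time gave 22 to 24 regions in all remaining libraries, 2 to 5 only with Res-shFabp7 (5 without Res-ctrl replicate 3) and 0 to 1 only with Res-ctrl (1 without Res-ctrl replicate 1). It gave a difference of 5.83 to 9.33 peaks per library, 1700 to 2970 bp and 0.453 to 2.62 peaks per 100000 (0.453 without Res-ctrl replicate 1, 0.980 without Res-shFabp7 replicate 1 and 2.62 without Res-shFabp7 replicate 2, in place of 1.58). With equal numbers of peaks the differences were 0.667 peaks (exact permutation p = 1.00, groups overlapping) and 1520 bp (exact permutation p = 0.1, groups apart), and none of the alternatives run turned a direction of these. By Fold, the 3 regions above and 1 below ranged over 3 to 8 and 1 to 5 when 1 library was left out, and became 4 above and 7 below against Res-ctrl replicate 3 alone. The 11 regions with higher depth-scaled pileup became 10 when pileup was divided by the library's median pileup (10.3% of all regions above, 14.6% below), 7 with pileup as deposited (15.8% above, 0.378% below) and 3 with Fold, and were 11 to 13 without any 1 library and 14, with 2 below, against Res-ctrl replicate 3 alone. Same-numbered libraries had correlations of deviations of -0.03 to 0.02. That does not settle whether the replicate numbers pair the libraries, as paired libraries can also have low correlations. With a replicate block the exact sign-flip p was 0.25 for peaks and for length and 0.75 per 100000. With 3 pairs it cannot go below 0.25, and the differences of 7.33, 2240 and 1.58 were unchanged. Depth limits what an absent peak means, as the 2 shallowest libraries are both Res-ctrl.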
